A study of Mus musculus with 10 samples.

Results

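The genes described here are 36 genes of fatty acid oxidation and ketone body metabolism, read from the brains of mice that lack Snx14, a sorting nexin anchored in the endoplasmic reticulum and known from lipid droplet biology. The members were chosen by name, from the carnitine shuttle to the enzymes that use ketone bodies, and all 36 were found among the 55536 mouse genes of the tables. By place of action, 18 belong to mitochondrial steps and 7 to peroxisomal steps. The other 11 act in both organelles (Eci2 and Crat), in ketone use (Bdh1, Oxct1 and Acat1), as regulators (Pdk4, Ppara and Ppargc1a), as thioesterases (Acot1 and Acot2) or as the neuronal Cpt1 form (Cpt1c). Not every member is an enzyme of the pathway. Acad9 serves mainly in the assembly of respiratory complex I, and Pdk4, Ppara and Ppargc1a act on the choice of fuel.

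Fatty acids are burned in mitochondria after the carnitine shuttle has carried them across the inner membrane. There each round of beta-oxidation removes a pair of carbons as acetyl-CoA and hands electrons to the respiratory chain. Very long and branched chains are first shortened in peroxisomes. Brain tissue burns mostly glucose, its fatty acid oxidation is ascribed mainly to astrocytes, and neurons can use ketone bodies that arrive with the blood.

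RNA was sequenced from the cerebellum (CB) and the cerebral cortex (CX) of 5 C57BL/6J mice at 1 year of age, 1 library for each tissue of each mouse. The Snx14-KO mice (KO 1 and KO 2) carried a frameshift deletion in both copies of Snx14 in every cell of the body. The controls were 2 heterozygous mice (Het, controls 1 and 2), which carried the same deletion in 1 copy, and 1 wild-type mouse (WT, control 3). The libraries were made from whole tissue, in which fewer cells of a type and less RNA per cell cannot be told apart. The study set the cerebellum, which degenerates without Snx14, against the spared cortex.

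Library totals lay between 16088310 and 22975355 gene counts. Snx14 itself was at 42.8, 39.9 and 73.2 CPM (counts per unit of library size, scaled by TMM over all 10 libraries) in the control cerebella and at 15.5 and 17.4 CPM in the KO cerebella. In cortex it was at 34.3, 34.9 and 50.8 CPM in the controls, with 14.8 and 16.1 CPM in mutant animals, so levels of the targeted gene matched the genotype labels. Granule cell markers summed to 4491 to 5282 CPM over the control cerebella and to 97.4 to 116 CPM over the control cortices, and none of the marker lists held a gene that was at 0 in every library. The cortex library of control 2 stood apart. Its 8 striatal markers summed to 3727 CPM, against 1440 and 1591 CPM in the other control cortices, and its counts differed from theirs by 29.9 and 31.7 chi-square units per degree of freedom, where the other pairs within a group lay between 4.41 and 15.6. Oligodendrocyte markers summed to 8863 CPM in this library, against 4801 and 4905 CPM in the other control cortices. Astrocyte markers summed to 3740 CPM, against 5049 and 4788 CPM, and cortical excitatory markers to 1319 CPM, against 1865 and 1785 CPM. Where leaving out this library changed the call of a member, the value without it is given beside the result.

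All 36 members passed the filter on low counts in every comparison. The sparsest was Ppara, with 26 to 56 read pairs per library. The most abundant, per length, was Oxct1, the enzyme that activates ketone bodies for burning in mitochondria. It stood at 302.9 ± 18.3 TPM, the count scaled to exon length and library size (SD, n = 3), in the control cerebella and at 249.8 ± 5.74 TPM in the control cortices. TPM was not scaled by TMM, and in CPM Oxct1 was at 344.2 ± 11.8 and 331.9 ± 15.0, with overlap between the tissues. Next in cerebellum came the electron carriers Etfa with 126 ± 4.83 TPM and Etfb with 104 ± 1.05 TPM, then the ketone thiolase Acat1 with 103 ± 2.06 TPM. In cortex the order after Oxct1 was Etfb, Acat1 and Etfa. The low end held Ppara, the fatty acid sensing nuclear receptor, with 1.45 ± 0.117 TPM in cerebellum and 1.30 ± 0.332 TPM in cortex. The carnitine shuttle genes were low for their pathway: Cpt2 ranked 27 of 36 members in cerebellum and 34 in cortex.

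**Figure D1:**
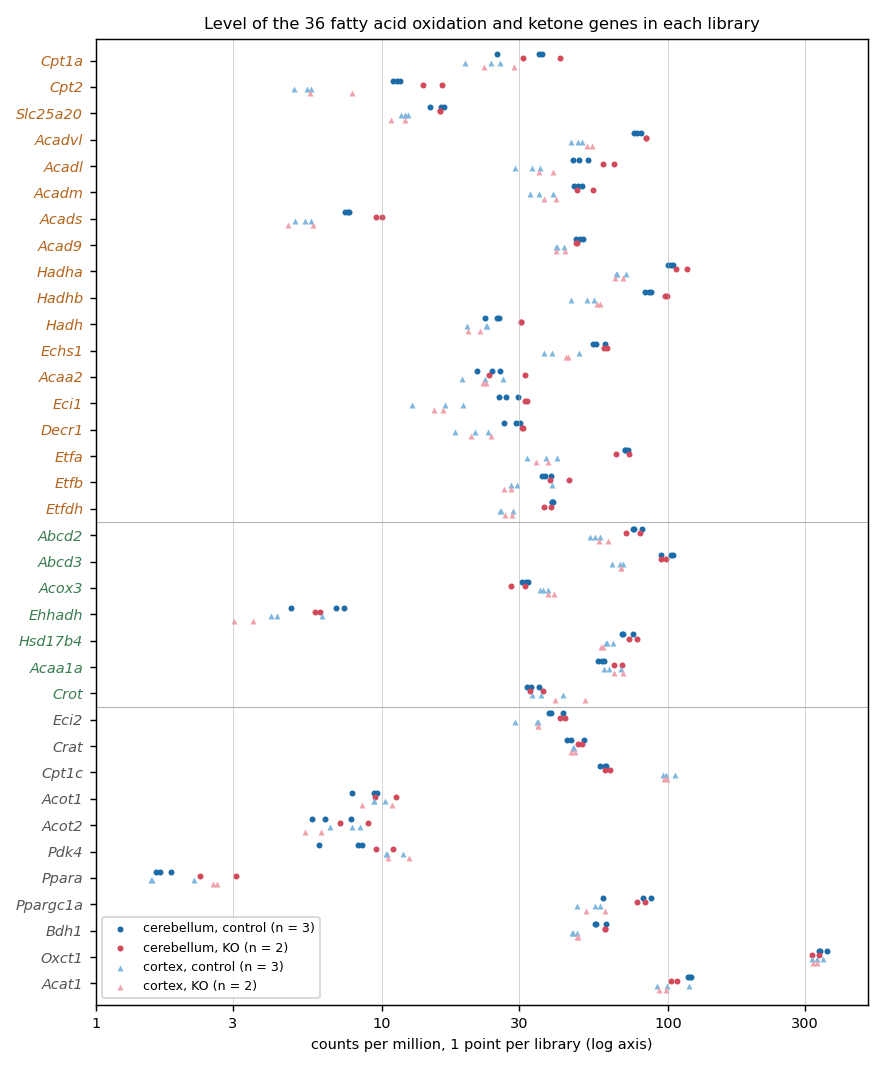
Level of each member in the 10 libraries, in CPM on a log axis, with 1 point per library. Circles are cerebellum and triangles cortex, and names are brown for mitochondrial steps, green for peroxisomal steps and grey for the others. Oxct1 lies between 318 and 358 CPM in all libraries, Cpt2 and Etfa split by tissue, and Ppara lies between 1.56 and 3.07 CPM.

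Control cerebellum and control cortex were compared first, since this contrast holds the largest differences among the members. To be called, a gene had to reach an adjusted p (Benjamini-Hochberg) under 0.05 in edgeR's quasi-likelihood test over all genes, and a log2 fold change above 0.5 in size. Higher expression in cerebellum was called for 10 of the 36 members, where the same rule called 19.2% of all genes tested. Lower expression was called for 2 members, where it called 21.8% of all genes. Of the 10, 9 were mitochondrial: Cpt2, Acadvl, Acadl, Acads, Hadha, Hadhb, Eci1, Etfa and Etfdh. The remaining gene was Abcd3, a transporter of the peroxisomal membrane, and the 2 lower genes were Cpt1c and Pdk4. Without the size threshold, 21 members were higher and 3 lower at an adjusted p under 0.05, against 27.6% and 27.8% of all genes. In either direction the rule with the size threshold called 12 of the 36 members (33.3%), against 40.9% of all genes. Control cerebella lay above all control cortices in 20 members and below them in 3, against 30.6% and 30.2% of all genes.

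The carnitine shuttle consists of Cpt1a, which loads long-chain acyl groups on carnitine, the carrier Slc25a20 and Cpt2, which unloads them inside. Cpt2 was at 11.3, 10.9 and 11.5 CPM in control cerebella and at 5.45, 5.62 and 4.91 CPM in control cortices. The tissues did not overlap, and the difference of 1.08 on the log2 scale (SE 0.146, edgeR adjusted p 9.13e-05) was the largest of all members. Within single mice the cerebellum to cortex ratio of Cpt2 lay between 1.94 and 2.49, KO mice included. Slc25a20 differed by 0.39 (SE 0.101, edgeR adjusted p 0.00666) and Cpt1a by 0.49 (SE 0.175, edgeR adjusted p 0.0351), below the size threshold. Cpt1a was at 36.3, 25.1 and 35.4 CPM against 25.8, 19.5 and 24.0 CPM, which overlapped. Its difference passed the size threshold without CB control 2 (0.64) or without CX control 1 (0.56).

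Cpt1c, the neuronal form, which sits in the endoplasmic reticulum and is not known for feeding the shuttle, went the other way. It was at 60.3, 60.3 and 57.8 CPM in control cerebella and at 105.6, 97.8 and 95.7 CPM in control cortices. The difference of -0.75 (SE 0.0613, edgeR adjusted p 1.71e-06) was the lowest of all members, and the ratio lay between 0.572 and 0.647 in the 5 mice. A stretch of each Cpt1 promoter is shown because the forms differed between the tissues in opposite directions. Capitals mark the nuclear receptor half-site AGGTCA or its reverse complement, with positions in GRCm38.p6 from RefSeq, and neither stretch lies in an annotated exon. The Cpt1a stretch lies in an intron of the gene as annotated for the counts, since the RefSeq start of Cpt1a is 967 bases downstream of the start in that annotation. The Cpt1c starts are the same in both, and its stretch lies upstream of the gene.
Cpt1a, chr19:3323180-3323239, plus strand: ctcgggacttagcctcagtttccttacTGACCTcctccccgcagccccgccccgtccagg
Cpt1c, chr7:44974965-44975024, minus strand: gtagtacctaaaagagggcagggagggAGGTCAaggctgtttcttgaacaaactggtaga
The half-site lay 94 to 89 bases before the RefSeq start of Cpt1a and 146 to 141 bases before that of Cpt1c. A RefSeq promoter window (250 bases before to 50 after a start) was found for 29 members, with 31 windows in all. The half-site was in 5 of the 31 windows on either strand (16.1%), each window from a different member, and in 16.3% of all 32851 windows. A direct repeat of the half-site with 1 base between, the form of element bound by PPAR receptors, was in none of the members' windows and in 0.0396% of all windows.

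The acyl-CoA dehydrogenases open each round of beta-oxidation, and each prefers a chain length. Acadvl, for very long chains, was at 80.5, 75.6 and 77.5 CPM in control cerebella and at 48.1, 49.8 and 45.5 CPM in control cortices, a difference of 0.70 (SE 0.0611, edgeR adjusted p 2.68e-06). Its annotated exons share 42.9% of their bases with Dvl2, and read pairs from there were counted for both genes. Acadl, for long chains, was at 46.4, 48.9 and 52.2 CPM against 35.5, 33.5 and 29.1 CPM, a difference of 0.59 (SE 0.0914, edgeR adjusted p 0.000246). The tissues did not overlap for either gene. Without CX control 3 the Acadl difference was 0.49, just under the size threshold.

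Acads, for short chains, lay at the threshold. It was at 7.61, 7.63 and 7.42 CPM against 5.63, 5.37 and 4.97 CPM, with a difference of 0.50 (SE 0.129, edgeR adjusted p 0.00627), and fell under the size threshold in DESeq2 (0.48), with other size factors (0.48) and without CB control 1 (0.50), CB control 2 (0.50), CX control 2 (0.50) or CX control 3 (0.44). Acadm, for medium chains and the enzyme of a common human oxidation defect, differed by 0.43 (SE 0.0885, edgeR adjusted p 0.00168). Acad9 differed by 0.24 (SE 0.0660, edgeR adjusted p 0.00951).

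Hadha and Hadhb encode the subunits of the trifunctional protein, which carries out the later steps on long chains. Hadha was at 102, 99.5 and 104 CPM in control cerebella and at 66.4, 71.1 and 65.6 CPM in control cortices, a difference of 0.59 (SE 0.0648, edgeR adjusted p 1.73e-05). Hadhb was at 82.7, 85.3 and 86.7 CPM against 52.1, 54.8 and 45.6 CPM, a difference of 0.74 (SE 0.0727, edgeR adjusted p 7.26e-06). Each subunit gene was higher in cerebellum in all 5 mice, with ratios of 1.40 to 1.68 for Hadha and 1.56 to 1.90 for Hadhb. The genes lie head to head on chromosome 5, and the 85 bases between their annotated starts are shown because a single short stretch separates these genes, which differed in the same direction.
Hadha to Hadhb, chr5:30155163-30155247, plus strand, GRCm38.p6: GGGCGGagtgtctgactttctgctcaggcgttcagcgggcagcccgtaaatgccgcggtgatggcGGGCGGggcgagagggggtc
Capitals mark the GC box GGGCGG, which this stretch holds at 2 places. Read on either strand, the GC box was in 21 of the 31 promoter windows of members (67.7%), each window from a different member, and in 35.7% of all windows. All windows were not limited to genes that passed the filter on low counts, as all members did. The share among such genes was not counted, so no trait of the members is read from this. Of the 150-base windows of Hadhb transcripts, 11.8% also occur in Gm13910, so its count is less certain than that of Hadha.

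Among the other enzymes of the mitochondrial round, Echs1, the short-chain hydratase, differed by 0.45 (SE 0.0968, edgeR adjusted p 0.00219), with 0.57 without CX control 2, which passed the size threshold. Hadh, the short-chain dehydrogenase, and Acaa2, the thiolase, did not pass the test, with differences of 0.15 (95% interval -0.06 to 0.36) and 0.06 (-0.25 to 0.38). Eci1, which moves double bonds so that unsaturated chains can be burned, was at 25.5, 29.9 and 27.0 CPM in control cerebella and at 16.5, 19.1 and 12.8 CPM in control cortices. Its difference was 0.76 (SE 0.134, edgeR adjusted p 0.000586), and the tissues did not overlap. Decr1, which also serves unsaturated chains, differed by 0.47 (SE 0.113, edgeR adjusted p 0.00466). It passed the size threshold without CB control 1 (0.52) or CX control 2 (0.54).

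Electrons from the dehydrogenases pass through the carrier Etfa and Etfb to Etfdh in the inner membrane. Etfa was at 70.7, 70.3 and 72.4 CPM in control cerebella and at 37.2, 40.8 and 32.2 CPM in control cortices. The difference of 0.95 (SE 0.0906, edgeR adjusted p 5.57e-06) was the largest after that of Cpt2. Etfdh was at 39.1, 39.1 and 39.6 CPM against 25.9, 28.6 and 26.1 CPM, a difference of 0.55 (SE 0.0742, edgeR adjusted p 8.78e-05). For Etfb, the partner of Etfa in the carrier, the difference was 0.21 (95% interval -0.06 to 0.47) and the tissues overlapped. The exons of Etfb share 58.2% of their bases with Gm45233, and 30.6% of its 150-base windows also occur there, so its count may hold reads of another transcript or lack reads of its own.

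In the peroxisome, Abcd2 and Abcd3 import acyl groups, Acox3, Ehhadh, Hsd17b4 and Acaa1a shorten them, and Crot prepares the products for export. Abcd3 was at 102, 94.2 and 104 CPM in control cerebella and at 67.9, 63.6 and 69.3 CPM in control cortices, a difference of 0.58 (SE 0.0638, edgeR adjusted p 1.78e-05). Abcd2 differed by 0.48 (SE 0.0699, edgeR adjusted p 0.000149), with 0.50 and a call without CB control 3. Hsd17b4, the bifunctional enzyme of branched and very long chains, differed by 0.20 (SE 0.0629, edgeR adjusted p 0.0171). Acox3, an oxidase of branched chains, was lower in cerebellum, with a difference of -0.21 (SE 0.0755, edgeR adjusted p 0.0338). Acaa1a (-0.11, 95% interval -0.27 to 0.04) and Crot (-0.16, -0.41 to 0.10) did not pass the test. Ehhadh did not pass it with all libraries (0.39, -0.07 to 0.84), but was called without CB control 2 (0.55, edgeR adjusted p 0.0391) or without CX control 2 (0.59, edgeR adjusted p 0.0266).

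Of the remaining members, Pdk4, a kinase that holds back the burning of glucose, was at 6.02, 8.23 and 8.49 CPM in control cerebella and at 11.8, 10.4 and 10.3 CPM in control cortices. The difference of -0.52 (SE 0.154, edgeR adjusted p 0.0147) was under the size threshold without CB control 1 (-0.37) or CX control 1 (-0.47), and in KO 2 the ratio was 1.04. Ppargc1a, the coactivator of mitochondrial genes, differed by 0.49 (SE 0.133, edgeR adjusted p 0.00848). It passed the size threshold without a filter on low counts (0.51) and without CB control 2 (0.65), CX control 1 (0.50) or CX control 3 (0.53). Bdh1, which makes the ketone acetoacetate from hydroxybutyrate, differed by 0.29 (SE 0.0620, edgeR adjusted p 0.00229) and Eci2 by 0.27 (SE 0.0874, edgeR adjusted p 0.0201). Acat1 missed the adjusted threshold with 0.21 (SE 0.0871, edgeR adjusted p 0.0596), and passed it with the mouse as a block (adjusted p 0.0292), below the size threshold. Oxct1, Crat, Ppara, Acot1 and Acot2 lay between -0.20 and 0.05, and none passed the test.

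**Figure D2:**
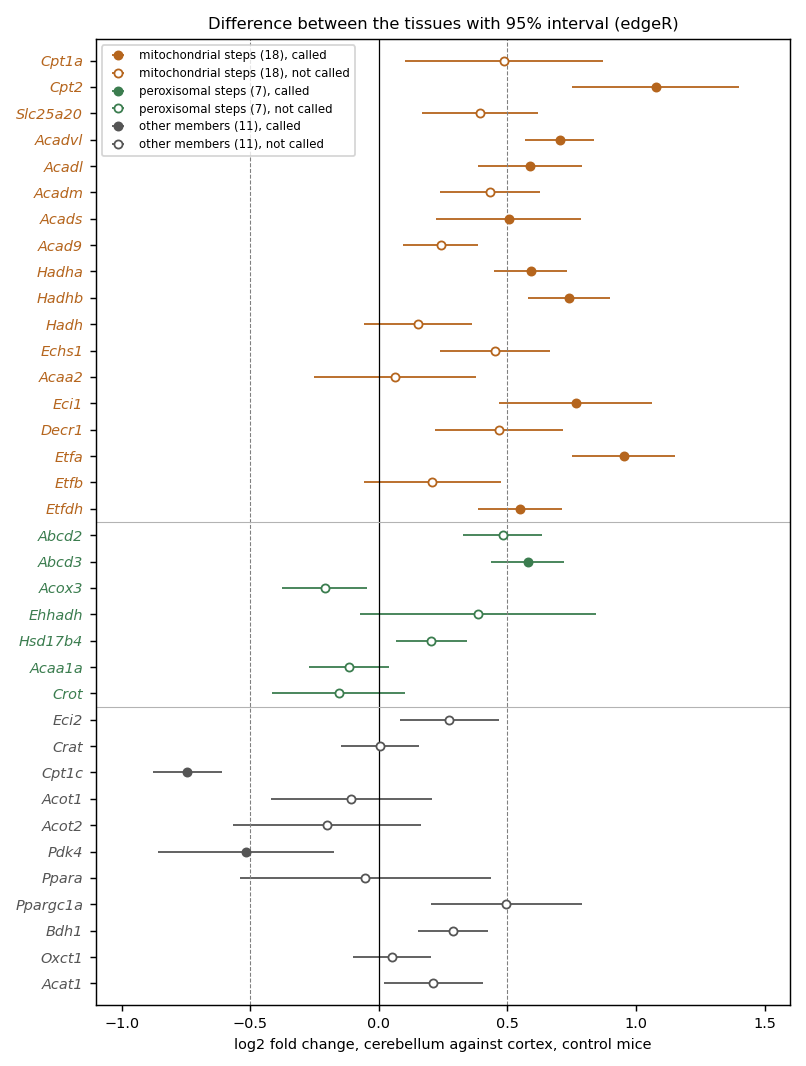
Log2 fold change of each member between control cerebellum and control cortex with its 95% interval from edgeR (3 libraries in each group), filled where called and open where not, with dashed lines at a size of 0.5. All 18 mitochondrial members (brown) lie right of 0, from 0.06 for Acaa2 to 1.08 for Cpt2, and Cpt1c lies lowest at -0.75.

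The direction was also read within single mice. In all 5 mice 22 of the 36 members were higher in cerebellum, against 33.5% of all genes, and 3 were lower (Acox3, Crot and Cpt1c), against 31.2%. Of the 12 called members, 11 had the called direction in every mouse, and Pdk4 did not in KO 2. The control mice had set the call, so only KO 1 and KO 2 lay outside it. The share of all called genes that kept their direction there was not counted. Among all members the mouse ratios ranged from 0.51 (Pdk4 in control 1) to 2.49 (Cpt2 in KO 1). Fitted with the mouse as a block, 12 members were called as well.

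**Figure D3:**
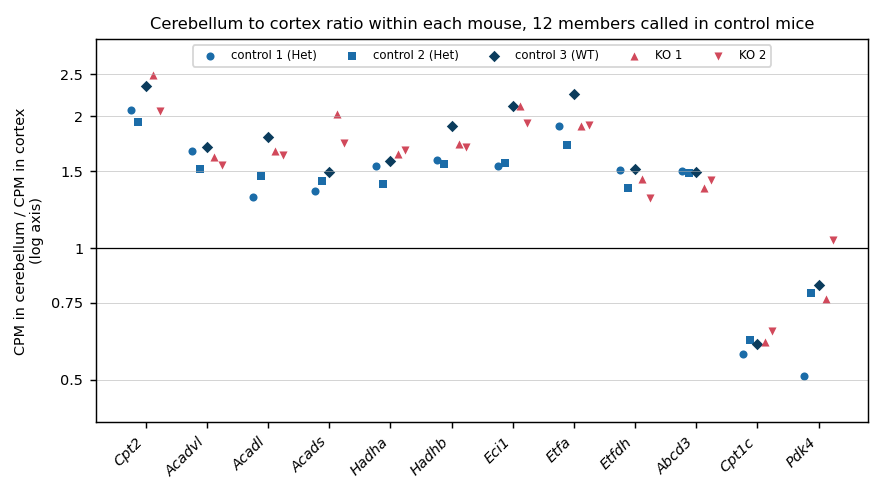
CPM in cerebellum divided by CPM in cortex of the same mouse, on a log axis, for the 12 members called between the tissues in control mice, with 1 marker per mouse. Blue markers are controls and red markers KO mice. The first 10 genes lie above 1 in every mouse, from 1.30 to 2.49, Cpt1c lies below 1 in every mouse, and Pdk4 of KO 2 lies at 1.04.

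The mitochondrial and peroxisomal classes were set side by side without a test. The median log2 difference between control cerebellum and control cortex was 0.49 for the 18 mitochondrial members, 0.20 for the 7 peroxisomal members and 0.01 for the other 11, beside 0.02 for all 20614 genes tested. All 18 mitochondrial members had a difference above 0, as did 4 of the 7 peroxisomal members and 51.1% of all genes. Summed TPM of the mitochondrial members was 767.8 ± 24.4 (SD, n = 3) in control cerebella and 452.0 ± 23.3 in control cortices. For the peroxisomal members it was 238.8 ± 12.8 and 177.3 ± 6.59. The peroxisomal sum divided by the mitochondrial sum was 0.318, 0.303 and 0.312 in control cerebella and 0.387, 0.364 and 0.428 in control cortices, so every control cerebellum lay below every control cortex. TPM was not scaled by TMM, and in TMM-scaled CPM the sums of the tissues lay closer. The mitochondrial sum was then 787.4 ± 11.9 CPM in control cerebella and 541.3 ± 43.4 CPM in control cortices. For the peroxisomal members the CPM sums were 378.3 ± 8.98 and 326.1 ± 5.11.

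Other genes near the pathway were read from lists. By the same rule 19.2% of all genes were called higher in control cerebellum and 21.8% lower. Of 25 tested genes of other fatty acid and branched chain oxidation, 8 were called higher in control cerebellum and 0 lower. The 3 of smallest adjusted p were Pcca of propionate breakdown (1.44, edgeR adjusted p 3.86e-08), Acad8 of valine breakdown (1.06, 3.36e-06) and Hacl1 of peroxisomal alpha-oxidation (1.46, 8.92e-06). Of 7 tested genes of carnitine supply, 6 were called higher and 0 lower. Among them Slc22a4, a carrier of ergothioneine and carnitine, was at 59.2 ± 7.92 CPM in control cerebella and 7.11 ± 0.543 CPM in control cortices, and Bbox1, which makes carnitine, was at 11.2 ± 0.528 and 1.21 ± 0.527 CPM (SD, n = 3 each).

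Of 24 genes of mitochondrial content 0 were called higher, against 19.2% of all genes. Tomm20 was called lower (-0.74, edgeR adjusted p 3.22e-06), against 21.8% of all genes. The median difference of the list was 0.16. At an unadjusted p under 0.05, 10 were higher and 3 lower, and the share of all genes under that rule is not given. Of 19 peroxisome biogenesis genes, 4 were called higher (Cat, Pex10, Pex2 and Pxmp2) and Pex11g lower, with a median of -0.01. Of 20 tested PPAR alpha targets and partners, 5 were called higher and 3 lower, with a median of -0.05. The differences between these lists and the members were not tested. The tissues also differ in cell makeup. Of 10 astrocyte markers 7 were called higher in control cerebellum, against 19.2% of all genes, and Slc1a2 lower. The astrocyte sums were 5472 to 6080 CPM against 3740 to 5049 CPM. Of 7 microglia markers 7 were called lower, against 21.8% of all genes. The microglia sums were 160 to 179 CPM against 364 to 412 CPM. The part of either list in the tissue differences of the members was not tested.

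In Snx14-KO cerebellum no member was called. In edgeR 0 of 36 members passed the adjusted p and the size, where 1.55% of all genes tested did (302 of 19447; 0.514% higher and 1.04% lower), and DESeq2 called 0 members as well. At an unadjusted p under 0.05 there were 9 members, against 13.4% of all genes. Of these, 8 were higher, against 6.9% of all genes, and 1 was lower, against 6.53%. The higher genes were Cpt2, Acadl, Acads, Hadhb and Hadh of the mitochondrial steps, Acaa1a of the peroxisome, and the regulators Pdk4 and Ppara. The lower gene was Acat1. For 31 of the 36 members the 95% interval of the fold lay within 1.5-fold either way, so larger differences lay outside it, and the 5 others were Cpt2, Acads, Acot2, Pdk4 and Ppara.

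The smallest p belonged to Acadl. It was at 46.4, 48.9 and 52.2 CPM in the control cerebella and at 59.0 and 64.7 CPM in the KO cerebella, a 1.25-fold level with both KO libraries above all controls. The log2 difference of 0.32 (SE 0.0806) had an edgeR adjusted p of 0.0983 and a DESeq2 adjusted p of 0.0441, under the size threshold in each. Without each library in turn the difference lay between 0.25 and 0.40. Cpt2 was at 11.3, 10.9 and 11.5 CPM against 13.9 and 16.1 CPM (0.41, SE 0.126, edgeR adjusted p 0.183), again without overlap.

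Among the genes of the trifunctional protein and the short-chain steps, Hadhb was at 82.7, 85.3 and 86.7 CPM in controls and at 97.0 and 98.6 CPM in KO cerebella (0.20, SE 0.0588, edgeR adjusted p 0.172). Hadha was at 102, 99.5 and 104 CPM against 106 and 116 CPM, with a log2 difference of 0.12 (95% interval -0.02 to 0.27). Hadh was at 22.8, 25.1 and 25.6 CPM against 30.5 and 30.6 CPM (0.31, SE 0.0924, edgeR adjusted p 0.170), and Acads was at 7.61, 7.63 and 7.42 CPM against 9.49 and 9.97 CPM (0.36, SE 0.133, edgeR adjusted p 0.282). In each of these 4 genes both KO libraries lay above the controls, and none passed the adjusted threshold. Echs1, the short-chain hydratase, was at 54.7, 60.2 and 55.9 CPM against 59.7 and 61.3 CPM, with overlap (0.08, 95% interval -0.08 to 0.24).

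Among the regulators Ppara had the largest difference of all members. It was at 1.68, 1.62 and 1.83 CPM in the control cerebella and at 3.07 and 2.32 CPM in the KO cerebella, a log2 difference of 0.64 (95% interval 0.09 to 1.19, edgeR adjusted p 0.290). The groups did not overlap. Pdk4 was at 6.02, 8.23 and 8.49 CPM against 9.49 and 10.9 CPM (0.42, 95% interval 0.01 to 0.84, edgeR adjusted p 0.363). Acaa1a was at 59.7, 56.8 and 58.7 CPM against 64.4 and 69.1 CPM (0.19, SE 0.0669, edgeR adjusted p 0.270), and 3.88% of its 150-base windows also occur in its near copy Acaa1b.

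Acat1, the thiolase of ketone use, had the lowest difference. It was at 117, 120 and 119 CPM in control cerebella and at 102 and 108 CPM in KO cerebella, a difference of -0.18 (95% interval -0.32 to -0.05, edgeR adjusted p 0.206). Oxct1 in the same pathway was at 357.8, 338.1 and 336.6 CPM against 337.1 and 318.7 CPM, with overlap (-0.08, -0.24 to 0.08). Bdh1 differed by 0.06 (-0.10 to 0.22).

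Over the whole set, 12 members had both KO cerebella above all controls, against 15.4% of all genes, and Acat1 and Etfdh had both below, against 14.6%. Of the 12, 9 were mitochondrial. The median log2 difference was 0.14 for mitochondrial members, with 15 of 18 above 0, and -0.04 for peroxisomal members, with 3 of 7 above 0, beside 50.2% of all genes above 0. Without each library in turn the mitochondrial median lay between 0.05 and 0.20 and the peroxisomal median between -0.06 and 0.01. The count of members at an unadjusted p under 0.05 fell from 9 to 6 without CB control 1, and the share of all genes there is not given. With libraries left out in turn the difference of Cpt2 lay between 0.29 and 0.52 and that of Ppara between 0.44 and 0.83.

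Summed TPM of the mitochondrial members was 777.5, 740.0 and 785.8 in the control cerebella and 811.1 and 898.6 in the KO cerebella. The peroxisomal sum was 247.3, 224.1 and 245.2 against 245.7 and 249.3. The ratio of the sums was 0.311 ± 0.00769 (SD, n = 3) in controls and 0.290 ± 0.0181 (SD, n = 2) in KO cerebella. The groups overlapped, with the lowest control (control 2) at 0.3028 and the highest KO (KO 1) at 0.3030, and KO 2 was at 0.277. With Acad9 left out the lowest control was at 0.311 and the highest KO at 0.310. With Eci2 counted as peroxisomal they were at 0.336 and 0.334, and with CPM in place of TPM at 0.471 and 0.460.

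**Figure D4:**
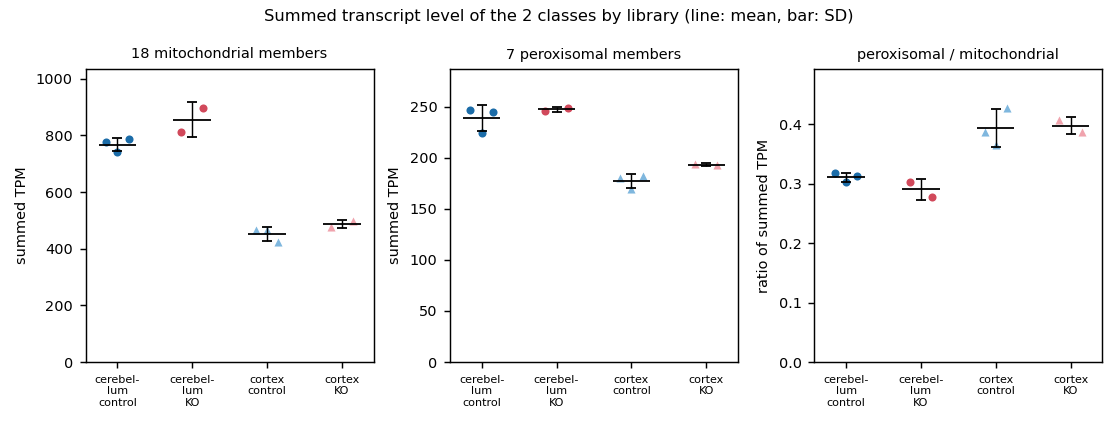
Summed TPM of the 18 mitochondrial members, of the 7 peroxisomal members, and their ratio, with 1 point per library, a line at the group mean and a bar of 1 SD. The cerebella lie above the cortices in each sum, and their ratios lie between 0.277 and 0.318 against 0.364 to 0.428 in cortex.

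Markers of other cells also differed in the same libraries, where the rule called 0.514% of all genes higher and 1.04% lower. Of 10 astrocyte markers 4 were called higher in KO cerebellum (Aqp4, Gfap, Gja1 and Gjb6), and their sum was 6490 and 6842 CPM against 5472 to 6080 CPM in controls. Of 8 Purkinje markers 7 were called lower, with sums of 4605 and 4742 CPM against 8979 to 10525 CPM. Of 7 microglia markers C1qa was called higher, with sums of 223 and 236 CPM against 160 to 179 CPM. Of 5 Bergmann glia markers Gria1 and Hopx were called lower, with sums of 2309 and 2163 CPM against 2828 to 3170 CPM. Of 6 choroid plexus markers 0 were called, but their sum was 60.2 CPM in KO 1 and 2907 CPM in KO 2, against 1198 to 3389 CPM in controls. The part of these shifts in the members' values was not tested.

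Around the members, no gene of the other fatty acid oxidation, carnitine supply, peroxisome biogenesis, ketone transport or mitochondrial content lists was called in KO cerebellum (0 of 25, 7, 19, 9 and 24 tested). At an unadjusted p under 0.05 these lists had 3, 2, 1, 1 and 2 genes in either direction, against 13.4% of all genes. Of 20 tested PPAR alpha targets and partners, 2 were called higher, against 0.514% of all genes. A part of Ppara in this was not tested. The values that follow are group means, given without their spread. Plin4, a coat protein of lipid droplets, was at 6.64 CPM on average in control cerebella and 31.3 CPM in KO cerebella (2.24, edgeR adjusted p 0.0455), and Txnip, a regulator of glucose uptake, was at 24.6 and 46.0 CPM (0.90, edgeR adjusted p 0.0211).

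**Figure D5:**
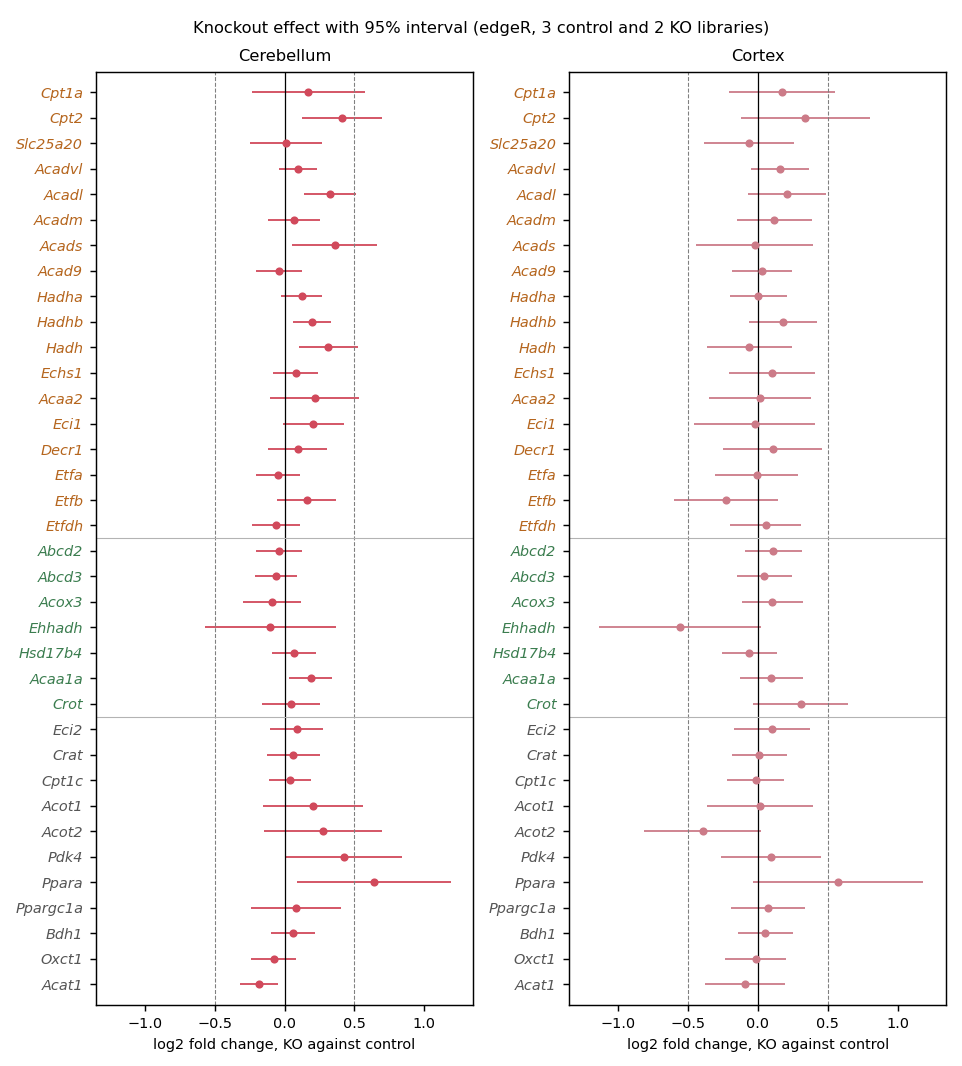
Log2 fold change of each member in KO against control libraries, with the 95% interval from edgeR, in cerebellum on the left and cortex on the right, with dashed lines at a size of 0.5. In cerebellum 9 intervals lie clear of 0, from -0.18 for Acat1 to 0.64 for Ppara, and in cortex every interval holds 0.

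In cortex 0 of 36 members were called by edgeR or DESeq2, and 0 had an unadjusted p under 0.05. Over all 19202 genes tested edgeR called 0.0%, with 1139 genes (5.93%) at an unadjusted p under 0.05 (2.64% higher and 3.29% lower), and DESeq2 called 49 genes. Snx14 itself was not called there by edgeR (-1.36, adjusted p 0.754) and was called by DESeq2 (adjusted p 1.42e-06). The 95% interval of the fold lay within 1.5-fold either way for 30 members. The 6 others were Cpt2, Etfb, Ehhadh, Crot, Acot2 and Ppara.

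Ppara again had the largest difference, at 1.56, 1.57 and 2.21 CPM in control cortices and 2.65 and 2.57 CPM in KO cortices (0.57, 95% interval -0.04 to 1.18, edgeR adjusted p 0.861). Ehhadh, the bifunctional enzyme of straight chains in peroxisomes, had the lowest. It was at 4.07, 6.18 and 4.29 CPM against 3.04 and 3.53 CPM (-0.56, -1.13 to 0.02, edgeR adjusted p 0.861). Neither gene's groups overlapped, and without CX control 2, whose Ehhadh level was the highest, the difference was -0.34 for Ehhadh and 0.49 for Ppara. In that setting 4 members had an unadjusted p under 0.05 (Acadvl, Echs1 and Hadhb higher, Acot2 lower), and the smallest edgeR adjusted p was 0.266. The biological coefficient of variation of all genes fell from 0.141 to 0.0761. The share of all genes at an unadjusted p under 0.05 in that setting is not given, so no result about the members is read from the 4.

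Both KO cortices lay above all controls for Acadvl, Acox3, Hadhb and Ppara, against 10.5% of all genes, and below them for Acot2, Ehhadh and Hsd17b4, against 14.2%. Acadvl, Hadhb and Ppara did so in cerebellum as well, in tissues of the same mice. The share of all genes that did so in both tissues was not counted, so no result is read from this overlap. The median log2 difference in cortex was 0.04 for mitochondrial members and 0.10 for peroxisomal members. With libraries left out in turn the mitochondrial median ran from -0.01 (without CX KO 2) to 0.11 (without CX control 2), so its sign rested on KO 2, and the peroxisomal median ran from 0.04 (without CX KO 1) to 0.10 (without CX control 2). Striatal markers differed between the groups in these libraries. Their sum was 412 and 885 CPM in KO cortices against 1440 to 3727 CPM in controls. At an unadjusted p under 0.05, 8 of 8 were lower, against 3.29% of all genes. Whether this came with genotype or with how the tissue was cut was not tested. Astrocyte markers summed to 5371 and 5663 CPM in KO cortices against 3740 to 5049 CPM in controls. Of these 10 markers 0 were called, and 4 were higher at an unadjusted p under 0.05, against 2.64% of all genes. The part of either list in the members' values was not tested.

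The difference between the KO effects in the tissues was tested directly, with 0 of 36 members called by edgeR and 0 by DESeq2, where 0.102% of all 20614 genes were. At an unadjusted p under 0.05 it was above 0 for Acot2 and Hadh, against 4.97% of all genes, and below 0 for 0 members, against 3.31%. The fit behind the values of this paragraph took the 10 libraries as separate samples, though both tissues came from the same mice. With the mouse as a block, Etfb joined Acot2 and Hadh at an unadjusted p under 0.05, and 0 members were called. The share of all genes at an unadjusted p under 0.05 with the block is not given. Acot2, a mitochondrial thioesterase, was at 7.79, 6.33 and 5.69 CPM in control cerebella and 7.13 and 8.90 CPM in KO cerebella, and at 8.38, 6.58 and 7.85 CPM in control cortices and 5.35 and 6.10 CPM in KO cortices. Its difference of effects was 0.69 (95% interval 0.11 to 1.27, edgeR adjusted p 0.484). Acot1 and Acot2 are near copies, with 10.2% of the 150-base windows of Acot2 also in Acot1, so reads may be split unevenly between them. For Hadh the cortex values were 23.1, 23.2 and 19.8 CPM in controls and 19.9 and 21.9 CPM in KO mice, and the difference of effects was 0.39 (0.06 to 0.73, edgeR adjusted p 0.486). The lowest difference of effects was that of Crot (-0.24, -0.64 to 0.17, edgeR adjusted p 0.829), which was at 43.0, 35.8 and 33.3 CPM in control cortices and 40.3 and 51.3 CPM in KO cortices, and at 32.2, 35.4 and 33.0 CPM in control cerebella and 33.0 and 36.6 CPM in KO cerebella. Without CX KO 2 the difference of effects of Crot was -0.06, and without CX KO 1 it was -0.41, so its size rested on which KO cortex was kept.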

How the data were processed

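The authors deposited a table of raw read pair counts for each library, made from strand-specific libraries with STAR and featureCounts 2.0.1 on GRCm38. Per the file headers strand was not used, and a pair overlapping several genes was counted for each. Of 81881 entries, 55536 mouse genes were kept (GENCODE M21 names). The others held 0.160% to 0.926% of a library's counts. The members and lists were chosen with earlier results of these data known.

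Counts were filtered (filterByExpr, count minimum 10), scaled by TMM and tested with edgeR 4.0.16 in R 4.3.3, over all genes, within each tissue for KO and over all 10 libraries for tissue and the difference of effects. Intervals are 95%. The code was tested on simulated data. DESeq2 (1.42.0 here), the tool of the study, was an alternative. The other alternatives were other size factors, no filter, a replicate or mouse block, another set of libraries in the fit, and each library left out. CPM uses 1 TMM scaling of all libraries. TPM uses exon length and the library total, without TMM. Values per library are given for members with a call or the largest difference in a comparison, and, chosen after seeing the values, for some others such as those at an unadjusted p under 0.05. Of context lists at most 3 called genes per direction have values. The tissue comparison of the ketone transport and synthesis list is not reported here.

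The tissues of a mouse pair by the labels, and their deviations from the group means correlated at 0.246 to 0.486. Libraries of a group are separate mice. Promoter windows came from RefSeq (GRCm38.p6).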

Additional observations from a re-analysis of the deposited data

How the results depend on the processing

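In every alternative run, 0 members were called for KO in either tissue or for the difference of effects, and between the tissues 11 to 14 were called (12 reported). Left-out libraries gave 11 to 14 there and 0 elsewhere. In KO cerebellum the smallest adjusted p of a member was 0.0136 in edgeR without a filter on low counts and 0.0441 in DESeq2. Both were under 0.05, so only the size threshold kept members from being called there. Counts of members at an unadjusted p under 0.05 varied more, among runs that kept at least 2 libraries in each group. They were 5 to 9 in cerebellum, 0 to 4 in cortex and 0 to 3 for the difference of effects. The share of all genes in each run is not given.

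Over all genes the calls moved further. In cerebellum 302 genes were called, with 842 without a filter on low counts, 133 to 400 with libraries left out (133, 179 and 180 without CB control 1, CB control 3 and CB KO 1) and 432 in DESeq2. In cortex 0 were called, with 380 without a filter, 49 in DESeq2, 98 without CX control 2 and 7 without CX KO 2. For the difference of effects 21 were called, with 599 without a filter, 221 in DESeq2 and 3 to 117 with libraries left out. The cause was not tested.

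Replicate numbers of control and KO mice only name animals, and same-numbered libraries correlated at -0.0411 to 0.162. With the replicate block 181 genes were called in cerebellum and 3 in cortex, with 5 and 0 members at an unadjusted p under 0.05 and 0 called. With the mouse block, which pairs the tissues of an animal, 128 genes and 0 members were called for the difference of effects, and 12 members between the tissues. Acat1 crossed the adjusted p between the tissues, and no call of a member changed. Ppara with 26 to 56 pairs is the member that depth limits most.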
